A study of Mus musculus with 12 samples.

Results

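The genes Lpl, Cst7, Apoe, Axl, Lgals3, Spp1, Itgax, Csf1, Fam20c and Cd9, which are often used to mark disease-associated microglia, were followed in single-cell counts of sorted mouse brain myeloid cells. They were taken by symbol, and all 10 were found among the 31053 genes counted. Each count is a number of unique molecular identifiers (UMIs), the tags that mark single captured RNA molecules in droplet sequencing. Ccl3, Ccl4 and Fos were read beside them in the same cells, to see whether cells with a UMI of one of them also held the disease-associated genes.

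The study asked how the way a brain is taken apart alters the RNA of its microglia. Whole brains of 12 male C57BL/6J mice at postnatal day 90 were used, and no mutation, injury or disease model was part of any group. DNC-NONE stands for tissue broken up by cold Dounce homogenization, which is mechanical, and ENZ-NONE for tissue digested warm with enzymes. For DNC-INHIB and ENZ-INHIB the same steps were carried out with inhibitors of transcription and translation (actinomycin D, triptolide and anisomycin). Live CD45 and CD11b double-positive cells were sorted, and each library came from 1 mouse, with 3 libraries per group. The libraries fell into 2 batches per the labels, and batch 2 held 1 ENZ-NONE library, replicate 6.

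Microglia are the resident macrophages of the brain. Around plaques, dying neurons and damaged myelin, some of them lower the genes of the resting state, such as P2ry12 and Tmem119, and raise genes for handling lipids, for lysosomes and for secreted signals, a state named disease-associated. Small numbers of cells with such a program are also known from healthy brain, while Ccl3, Ccl4 (chemokines that attract other immune cells) and Fos (a transcription factor subunit made within minutes of stimulation) are known to rise in cells handled after death.

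After filtering, 18826 of 28426 cells were kept, with 853 to 2185 cells and 1059783 to 3233159 UMIs per library. Of these, 17890 cells in 7 clusters were microglia-like, with a median of 1333 UMIs (1139 to 1573 across libraries). The others were 404 interferon-like, 131 monocyte-like, 114 border macrophage-like and 28 proliferating-like cells, and 259 cells left unnamed, 257 of them in 1 cluster led by MHC class II genes. Marker genes of neutrophils summed to between 9.20 and 3933 CPM (UMIs per 1000000 UMIs of the library's kept cells) in DNC-NONE and to at most 512 in any other library. Of 27914 distinct cell barcodes, 503 occurred in 2 or more libraries and 9 in 3 or more.

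In the GRCm38 assembly (mm10), with GENCODE gene models, Lpl lies at chr8:68880491-68907448, Cst7 at chr2:150570415-150578944, Lgals3 at chr14:47367751-47386160, Itgax at chr7:128129547-128150657, Fam20c at chr5:138754514-138810077 and Spp1 at chr5:104435118-104441050, all on the forward strand. Apoe lies at chr7:19696109-19699188, Axl at chr7:25757273-25788705, Csf1 at chr3:107741048-107760469 and Cd9 at chr6:125460266-125494791, all on the reverse strand. All are protein-coding. Spp1 overlaps Gm42793 on its own strand, which by name was not among the genes counted. Cd9 overlaps Gm28809 and Gm26728 on the opposite strand, and 1 of these 2 was counted. Whether the overlaps added to the counts of Spp1 or Cd9 was not tested. No other member overlaps an annotated gene.

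Promoter windows of 250 bases before the start site (RefSeq, GRCm38.p6) were read because several of the genes were found in the same cells as Ccl3 and Ccl4, as described further on. The table held 12 windows of 9 members, without Lpl. On either strand, the AP-1 core TGANTCA was found in the window of Itgax alone among the members, 56 bases before its start, and in 6.75% of 32851 windows of that length. The kappa-B consensus was found in Lgals3, 70 bases before the start, and in Csf1, 154 bases before it, and in 7.25% of all windows. Among the genes read beside the members, Ccl3 had neither motif. Fos had the kappa-B consensus 214 bases before its start, and Ccl4 had no window. The 3 windows are given 5′ to 3′ on the strand of the gene, with the motif in capitals, at chr7:128129300-128129549 for Itgax, chr14:47373610-47373859 for Lgals3 and chr3:107760470-107760719 for Csf1. The Lgals3 window ends at a RefSeq start that lies inside the GENCODE gene model given above. The letters are a description of these windows and say nothing about binding.
Itgax: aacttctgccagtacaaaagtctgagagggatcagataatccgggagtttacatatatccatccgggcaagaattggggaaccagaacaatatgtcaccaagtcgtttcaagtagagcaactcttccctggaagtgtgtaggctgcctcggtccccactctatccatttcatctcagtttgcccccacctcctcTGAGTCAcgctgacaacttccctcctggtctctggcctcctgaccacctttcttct
Lgals3: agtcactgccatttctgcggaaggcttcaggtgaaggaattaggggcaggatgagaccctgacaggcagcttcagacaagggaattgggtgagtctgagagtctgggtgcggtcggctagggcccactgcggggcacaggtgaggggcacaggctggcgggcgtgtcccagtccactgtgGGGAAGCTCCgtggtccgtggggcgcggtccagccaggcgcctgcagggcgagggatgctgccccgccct
Csf1: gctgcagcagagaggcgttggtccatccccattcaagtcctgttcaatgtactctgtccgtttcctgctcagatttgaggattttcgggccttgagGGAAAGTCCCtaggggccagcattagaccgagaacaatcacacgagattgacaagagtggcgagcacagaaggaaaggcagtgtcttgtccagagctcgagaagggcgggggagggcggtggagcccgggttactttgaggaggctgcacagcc

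Cd9, a tetraspanin of the cell surface, was seen in most microglia and varied little between libraries. Summed over all kept cells, its level was 1405, 1689 and 1931 CPM in DNC-NONE, 1630, 1677 and 1779 in the DNC-INHIB libraries, 1628, 1876 and 1614 in ENZ-NONE and 1734, 1690 and 1721 in ENZ-INHIB. The 4 groups overlapped. Between ENZ-NONE and DNC-NONE the 95% interval of the log2 fold change was -0.13 to 0.26. Of its 45325 UMIs, 96.7% came from microglia-like cells.

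Apoe, a carrier of lipids between cells, was the other widely seen member. Its level was 1945, 4804 and 2168 CPM in DNC-NONE, 1522, 2059 and 2815 in the DNC-INHIB libraries, 1233, 1782 and 2065 in ENZ-NONE and 1982, 2006 and 1300 in ENZ-INHIB. DNC-NONE replicate 2 was the highest library, and the groups overlapped. Only 37.2% of the 54971 Apoe UMIs came from microglia-like cells. All 114 border macrophage-like cells held Apoe after thinning to an equal depth (1000 UMIs per cell). Without thinning they held 14633 of the Apoe UMIs, and the 257 cells of the cluster led by MHC class II genes held 17061. The summed level therefore also reads how many such cells a library held. In such sums fewer cells of a type and less RNA per cell cannot be told apart.

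Lpl, the lipase that frees fatty acids from lipoproteins, had 370 UMIs in all. Its level was 9.60, 17.9 and 34.97 CPM in DNC-NONE, 14.7, 12.2 and 15.2 in the DNC-INHIB libraries, 5.51, 16.9 and 5.50 in ENZ-NONE and 25.3, 5.65 and 14.4 in ENZ-INHIB. The ranges of the 4 groups overlapped, and DNC-NONE replicate 3 was highest. Cst7, which encodes cystatin F, an inhibitor of lysosomal proteases, had 405 UMIs, at 13.2, 20.8 and 19.4 CPM in DNC-NONE, 14.3, 12.9 and 16.4 in the DNC-INHIB libraries, 14.2, 23.5 and 10.3 in ENZ-NONE and 18.9, 9.80 and 16.4 in ENZ-INHIB. The groups overlapped for Cst7, and 95.6% of its UMIs, as 94.6% of those of Lpl, came from microglia-like cells.

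Axl, a receptor tyrosine kinase for the uptake of dying cells, and Lgals3, which encodes the sugar-binding protein galectin-3, came mostly from other cells: 36.5% of 400 Axl UMIs and 19.5% of 1190 Lgals3 UMIs were in microglia-like cells. Axl was at 12.4, 35.9 and 15.5 CPM in DNC-NONE, 14.7, 15.6 and 24.4 in the DNC-INHIB libraries, 9.64, 13.7 and 11.4 in ENZ-NONE and 11.9, 13.2 and 8.58 in ENZ-INHIB. All DNC-INHIB libraries lay above all ENZ-NONE and all ENZ-INHIB libraries for Axl. A gap between 3 libraries and 3 others has an exact permutation p of 0.1, the smallest possible on 20 splits. The share of all genes with such a gap was not counted. Gaps between 2 groups, here and for other members, are therefore given as a description only. Lgals3 was at 115, 74.5 and 53.3 CPM in DNC-NONE, 27.6, 44.9 and 33.7 in the DNC-INHIB libraries, 17.9, 26.7 and 75.1 in ENZ-NONE and 39.3, 19.2 and 12.9 in ENZ-INHIB. The 3 DNC-NONE libraries lay above all DNC-INHIB and all ENZ-INHIB libraries for Lgals3. Marker genes of monocytes (all 9 listed were detected) moved beside it, summing to 198 to 346 CPM in DNC-NONE, 53.3 to 121 in DNC-INHIB, 60.2 to 221 in ENZ-NONE and 38.6 to 142 in ENZ-INHIB; their part in the Lgals3 level was not tested. Within microglia-like cells Lgals3 was at 12.8 ± 11.6 CPM (SD, n = 3) in DNC-NONE and 6.11 ± 3.73 in ENZ-INHIB, and those ranges overlapped.

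Spp1, which encodes the secreted protein osteopontin, rested on very few cells. It was at 4.80, 23.6 and 7.22 CPM in DNC-NONE, 2.85, 39.9 and 10.5 in the DNC-INHIB libraries, 4.59, 5.86 and 8.79 in ENZ-NONE and 52.3, 1.89 and 2.73 in ENZ-INHIB. One cell of ENZ-INHIB replicate 1 held 94 of that library's 97 UMIs, and the 10 richest cells of all libraries held 70.9% of the 347 UMIs. Lpl was concentrated too, with 31.9% of its UMIs in 10 cells and up to 20 in 1 cell.

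Itgax, the integrin subunit also known as CD11c, had 90 UMIs in all, Fam20c, a kinase of secreted proteins, had 134, and Csf1, the growth factor on which microglia depend, had 306. Itgax was at 2.80, 5.66 and 4.995 CPM in DNC-NONE, 0.951, 1.14 and 3.71 in the DNC-INHIB libraries, 2.30, 2.61 and 2.93 in ENZ-NONE and 6.46, 3.77 and 4.68 in ENZ-INHIB. The ENZ-INHIB libraries all lay above the DNC-INHIB and the ENZ-NONE libraries, on 34, 17 and 17 UMIs per group. However, 7 of the 12 UMIs of ENZ-INHIB replicate 1 came from 1 cell, and by the share of cells with a UMI that library (0.441%) lay below DNC-INHIB replicate 6 (0.503%) and ENZ-NONE replicate 6 (0.458%). Csf1 ran from 6.63 to 18.01 and Fam20c from 2.61 to 9.44 CPM over the 12 libraries, with every group overlapping every other. Of the cells with a UMI of Csf1, 89.96% held exactly 1.

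**Figure D1:**
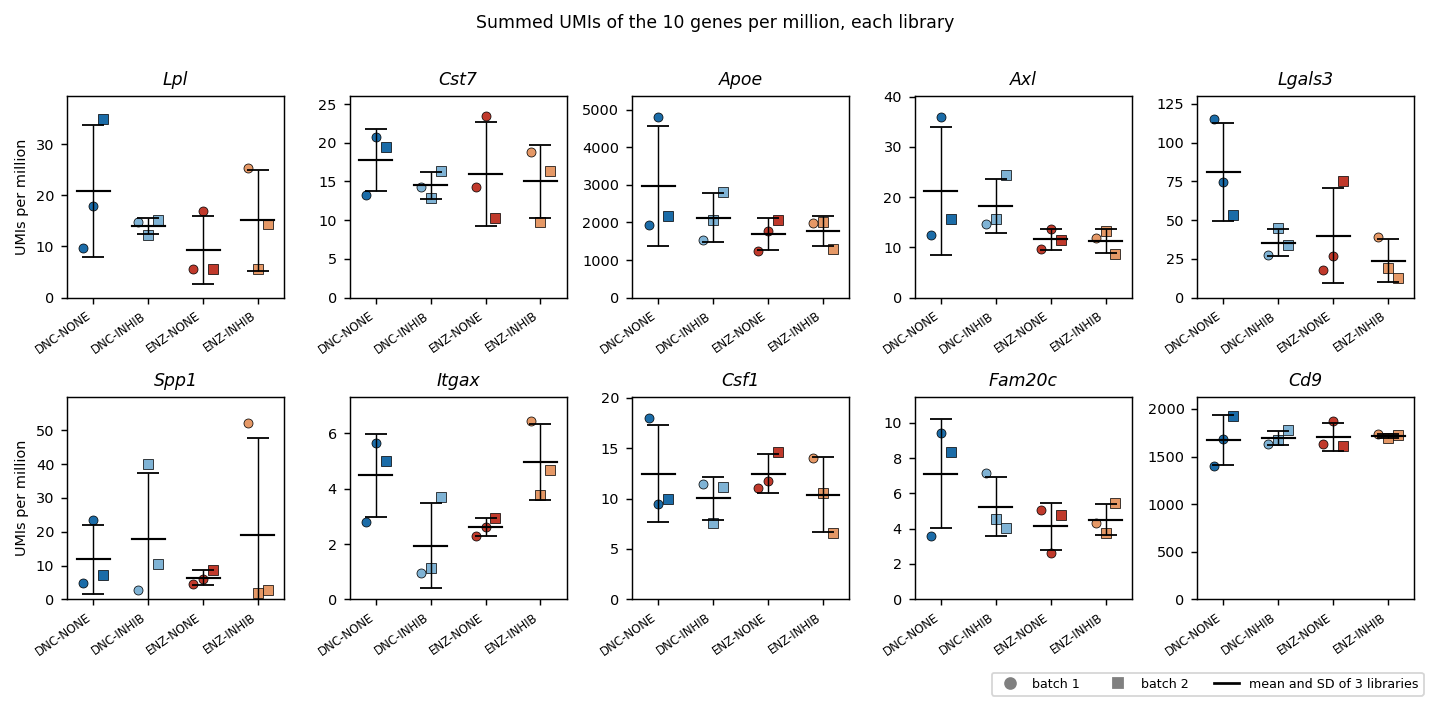
Summed UMIs of each gene per 1000000 UMIs of all kept cells (CPM, linear axis from 0), 1 point per library, with the batch given by the point's shape and the line and bar giving the mean and SD of 3 libraries. The points of the 4 groups overlap for Cd9, which runs from 1405 to 1931, and 1 library of ENZ-INHIB stands at 52.3 for Spp1.

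None of the 10 genes differed between any 2 of the 4 groups at the threshold used, an adjusted p under 0.05 in edgeR's quasi-likelihood test on summed counts with Benjamini-Hochberg adjustment over 9882 genes, together with an absolute log2 fold change over 0.58. For ENZ-NONE against DNC-NONE, 0 of 10 were called, beside 0.465% of all genes tested, and the smallest adjusted p of the 10 in edgeR's test was 0.649 (Axl). The share of all genes called was 0.739% for ENZ-NONE against DNC-INHIB, 0.293% against ENZ-INHIB, 0.202% for ENZ-INHIB against DNC-INHIB, 0.172% for ENZ-INHIB against DNC-NONE and 0% for DNC-NONE against DNC-INHIB, again with 0 of the 10. At shares this low, no call among 10 genes is what the background alone would give. DESeq2 also called 0 of the 10 in each of the 6 pairs. In the test of whether the inhibitors acted differently in the 2 methods, 0 of 10 were called, beside 0.0607% of all genes.

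In these sums over all kept cells, 0 of the 10 reached an unadjusted p under 0.05 in edgeR's test in the 3 pairs with ENZ-NONE. In DNC-NONE against DNC-INHIB 0 reached it too, and in each of the 2 remaining pairs 2 did. Of all genes tested, 8.27% reached it for ENZ-NONE against DNC-NONE and 9.36% against DNC-INHIB. The share was 4.94% for ENZ-NONE against ENZ-INHIB and 4.40% for DNC-NONE against DNC-INHIB. Between ENZ-INHIB and DNC-INHIB, Itgax had a log2 fold change of 1.19 ± 0.47 (SE, 95% interval 0.22 to 2.17) and Axl of -0.73 ± 0.32 (-1.42 to -0.05). Between ENZ-INHIB and DNC-NONE, Lgals3 had one of -1.87 ± 0.61 (-3.28 to -0.46) and Axl one of -0.75 ± 0.35 (-1.48 to -0.01). The adjusted p of these 4 values in edgeR's test ran from 0.353 to 0.559. Over all 9882 genes, 838 (8.48%) and 1031 (10.4%) were under the same unadjusted limit in these 2 pairs. Itgax was also under it in the interaction (log2 fold change -1.80 ± 0.70, adjusted p 0.9996 in edgeR's test), as were 3.28% of all genes.

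How large a difference these libraries leave room for varied widely between the genes. For ENZ-NONE against DNC-NONE, the 95% interval of the log2 fold change ran from -0.71 to 0.44 for Cst7, from -0.61 to 0.56 for Csf1, from -1.41 to 0.30 for Fam20c and from -2.83 to 0.39 for Lpl. For Spp1 it ran from -4.36 to 3.34, so that no useful limit could be set. The median log2 fold change of the 10 was -0.58, beside 0.00 over all genes tested, and it was -0.07 against DNC-INHIB and 0.00 against ENZ-INHIB.

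Ccl3 was at 207, 234 and 553 CPM in ENZ-NONE and at 9.80 to 44.0 in the other 9 libraries. Ccl4 was at 310, 238 and 1058, against 27.4 to 82.1, and Fos at 410.9, 392.1 and 1753, against 0.390 to 37.2. Every ENZ-NONE library stood above all others for these 3 genes. Ccl3 passed the threshold in all 3 pairs with ENZ-NONE, with log2 fold changes of 3.16, 3.78 and 4.17 (adjusted p 0.0377, 0.0103 and 0.0186 in edgeR's test). Fos passed it in 2 (8.60 against DNC-INHIB and 8.34 against ENZ-INHIB) and had an adjusted p of 0.0596 in edgeR's test against DNC-NONE, where replicate 1 held 93 of the group's 99 UMIs. Ccl4 had adjusted p values of 0.0829 to 0.107 in that test.

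Further genes of the disease-associated and of the resting state were not called either. Of a list of 25 other disease-associated genes, many of them lysosomal, 18 could be tested, and of 14 genes of resting microglia all could. In each of the 6 pairs 0 of either list were called, and the median log2 fold change for ENZ-NONE against DNC-NONE was 0.04 and 0.10. When microglia-like cells alone were summed, 9 of the 10 members passed the filter on low counts, Itgax being the exception, and again 0 were called in any pair, beside 0.403% of 9669 genes for ENZ-NONE against DNC-NONE, 0.776% against DNC-INHIB, 0.331% against ENZ-INHIB, 0.0103% for DNC-NONE against DNC-INHIB, 0.29% for ENZ-INHIB against DNC-INHIB and 0.124% for ENZ-INHIB against DNC-NONE.

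The share of microglia-like cells with a UMI of each gene was then compared after every cell had been thinned at random to 1000 UMIs, which left out 0 cells. For Lpl it was 0.521%, 0.512% and 1.81% of DNC-NONE cells, 0.406%, 1.18% and 0.584% in DNC-INHIB, 0.395%, 0.842% and 0.425% in ENZ-NONE and 0.775%, 0.499% and 0.786% in ENZ-INHIB. For Cst7 it was 0.810%, 1.15% and 1.66%, then 1.49%, 1.29% and 0.681%, then 0.987%, 1.50% and 0.971%, then 1.32%, 0.873% and 0.852%, in the same order. DNC-NONE replicate 3 was highest for both, and the groups overlapped. Without thinning the means of the 4 groups were 1.27%, 0.958%, 0.732% and 1.07% for Lpl and 1.81%, 1.58%, 1.85% and 1.74% for Cst7.

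Cd9 was seen in 69.6% to 80.3% and Apoe in 19.7% to 32.3% of microglia-like cells across the 12 libraries. The other 6 genes ranged from 0.249% to 0.879% for Axl, 0.249% to 1.21% for Lgals3, 0.0623% to 0.384% for Spp1, 0.0536% to 0.393% for Itgax, 0.536% to 1.40% for Csf1 and 0.281% to 0.906% for Fam20c. For these 6 genes a library held between 1 and 23 positive cells. The ENZ-INHIB libraries (0.310%, 0.249% and 0.328%) lay below all others for Axl, on 4, 4 and 5 positive cells. Without thinning the mean for Axl was 0.641% in ENZ-INHIB and 0.554% in ENZ-NONE.

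The 3 ENZ-NONE libraries differed from the other 9 by between -0.43 (Apoe) and 0.22 (Cd9) percentage points. In the exact permutation test over libraries (two-sided, 220 splits) the smallest of the 10 raw p values was 0.355, for Spp1 and Csf1. For Lpl the mean was 0.554% ± 0.250 in ENZ-NONE (SD, n = 3) and 0.786% ± 0.450 in the other 9 (exact permutation p = 0.391). The 2 batches gave opposite directions for Lpl, with 0.618% against 0.553% in batch 1 and 0.425%, a single library, against 0.972% in batch 2. Ccl3 was seen in 8.55%, 8.42% and 17.5% of ENZ-NONE cells and in 0.312% to 2.25% of cells elsewhere, Fos in 12.0%, 13.9% and 37.3% against 0% to 2.66%. For Ccl3, Ccl4 and Fos p was 0.00909, the smallest that this exact permutation test can give, and within batch 0.0222 on 90 splits.

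**Figure D2:**
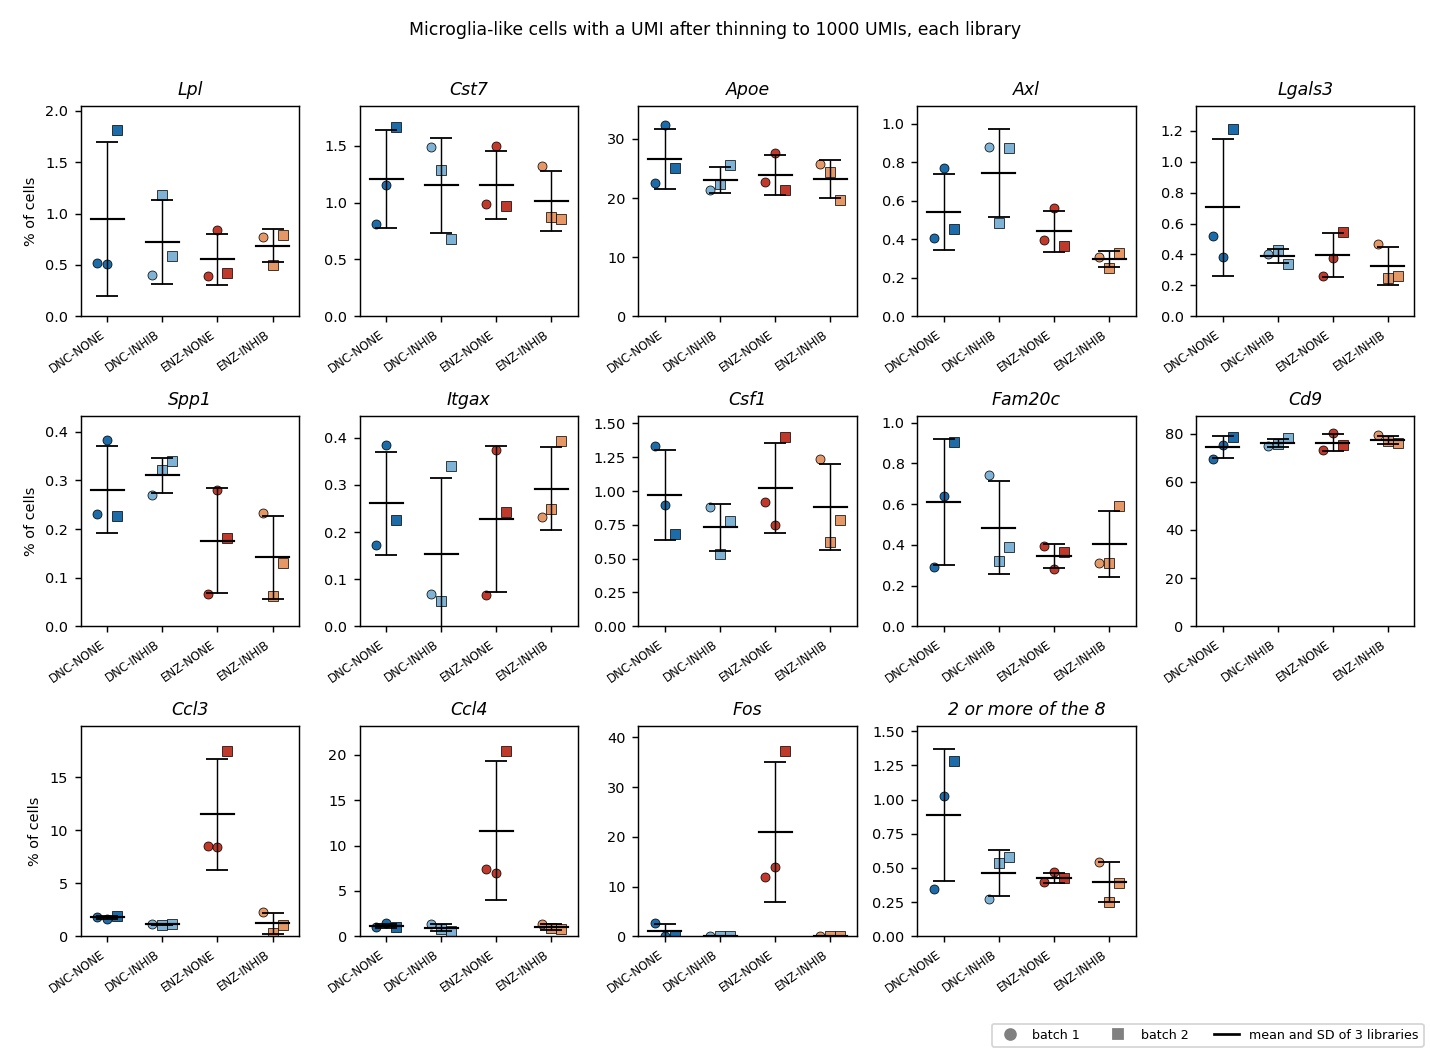
Share of microglia-like cells with at least 1 UMI of each gene after thinning to 1000 UMIs (percent, axes from 0 and different for each gene), 1 point per library, with mean and SD of 3 libraries. ENZ-NONE stands apart for Ccl3, Ccl4 and Fos (Fos 12.0% to 37.3%) and lies among the other groups for Lpl (0.395% to 0.842%) and the other disease-associated genes.

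Droplets also catch free RNA, which adds UMIs of a gene to cells that never made it, so the shares were set beside those of the 245 border macrophage-like and monocyte-like cells, which had a median of 1681 UMIs before thinning. Some of these cells may make the genes themselves, and no class in the sort could serve as one known to be without them. Of these 245 cells, 1 held Lpl (0.408%), 4 held Cst7 (1.63%), 1 held Spp1 (0.408%), 3 held Fam20c (1.22%) and 0 held Csf1. For Csf1 the exact 95% interval allows a share of up to 1.49%. Across all microglia-like cells the shares were 0.721% for Lpl, 1.10% for Cst7, 0.224% for Spp1, 0.447% for Fam20c and 0.900% for Csf1, and their exact 95% intervals overlapped those of the 245 cells for each of these 5 genes. The upper limits of the intervals in the 245 cells ran from 1.49% (Csf1) to 4.13% (Cst7), above each of these shares. So few cells could therefore not show whether detection over all microglia-like cells was above a background. All 4 cells with Cst7 were monocyte-like. Cd9 was in 75.9% of microglia-like cells and in 13.9% of the 245.

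The 8 rarely seen genes (all but Apoe and Cd9) were found together far more often than their separate shares would give. Of the 17890 cells, 17197 held none of the 8, 601 held 1, 69 held 2, 17 held 3, 4 held 4 and 2 held 5. The 92 cells with 2 or more compare with 15.7 expected if the genes had been spread independently within each library, a ratio of 5.87 (4.73 to 7.20; intervals of such ratios are exact Poisson intervals of the observed number and cover counting error only). For 3 or more, 23 cells were seen and 0.174 expected. The excess was present in each preparation: 31 cells against 4.85 in DNC-NONE (ratio 6.40), 26 against 4.77 in DNC-INHIB (5.46), 18 against 3.12 in ENZ-NONE (5.76) and 17 against 2.94 in ENZ-INHIB (5.78), with overlapping intervals.

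As a share of microglia-like cells, those with 2 or more of the 8 made up 0.347%, 1.02% and 1.28% of DNC-NONE cells, 0.271%, 0.536% and 0.584% in DNC-INHIB, 0.395%, 0.468% and 0.425% in ENZ-NONE and 0.543%, 0.249% and 0.393% in ENZ-INHIB. The 2 highest libraries were both of DNC-NONE, whose replicate 1 lay among the other groups. ENZ-NONE differed from the other 9 by -0.15 percentage points (exact permutation p = 0.636, and 0.689 within batch). Without thinning there were 143 such cells (0.799%). Cells with both Lpl and Cst7 numbered 7 after thinning, where 1.54 were expected, and 19 without it. The 7 came from all 3 DNC-NONE libraries (0.116% to 0.151% of cells), 1 ENZ-NONE and 1 ENZ-INHIB library. Without thinning the group means were 0.322% ± 0.276 in DNC-NONE, 0.0728% ± 0.0223 in DNC-INHIB, 0.0936% ± 0.162 in ENZ-NONE and 0.0466% ± 0.0411 in ENZ-INHIB (SD, n = 3).

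Among the 45 pairs of members, Lgals3 and Spp1 had the highest ratio, with 10 cells holding both where 0.186 were expected (ratio 53.7, 25.7 to 98.7). Lpl and Lgals3 shared 21 cells against 0.697 (30.1, 18.6 to 46.0) and were above the expected number in 12 of 12 libraries. Cst7 and Spp1 shared 11 against 0.450 (24.4). The pairs with Apoe were closer to independence, from 1.42 with Csf1 to 2.68 with Spp1, apart from Cd9. Apoe and Cd9 met in 3316 cells against 3231 (1.03, 0.992 to 1.06). Every pair was above 1. The interval reached below 1 for all pairs with Cd9 (Lpl and Cd9 1.15, 0.944 to 1.38), and also for Cst7 with Itgax and with Fam20c and for Axl with Itgax (1 cell, 0.124 to 27.4) and with Csf1. The points of all pairs share the same cells and libraries and are given as a description.

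**Figure D3:**
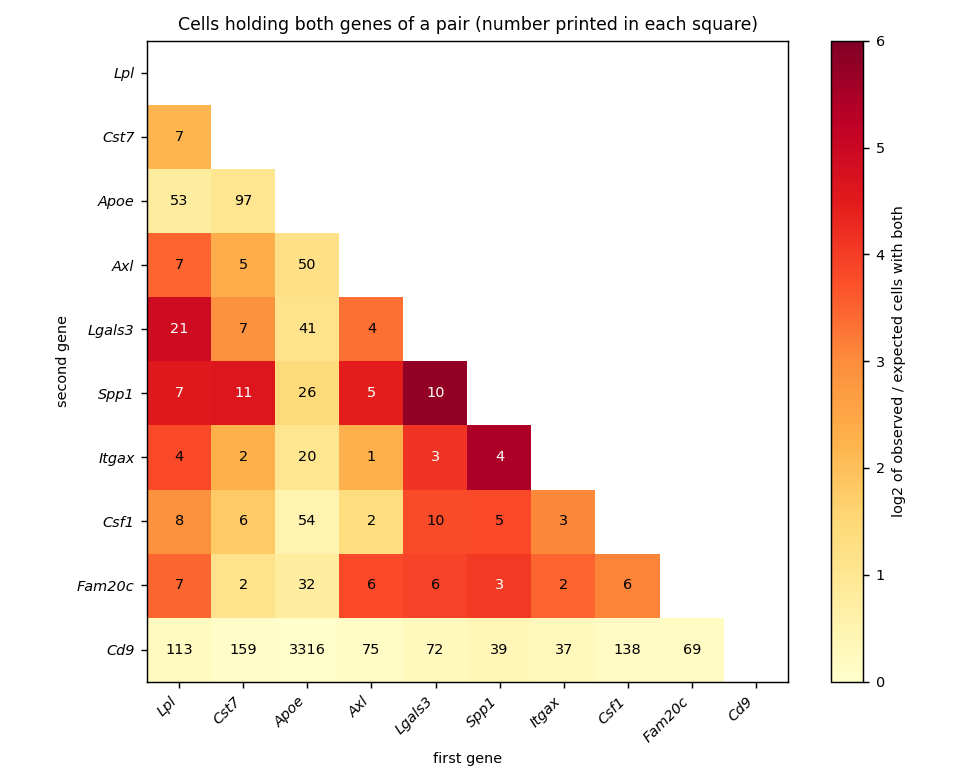
Each square is 1 pair of genes in microglia-like cells thinned to 1000 UMIs, with the number of cells that held both printed in it and the colour giving log2 of that number over the number expected within libraries. The darkest square is Lgals3 with Spp1 (10 cells), and the bottom row, pairs with Cd9, is pale throughout (ratios 1.03 to 1.28).

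Most of the cells with several of the genes sat in 1 small cluster. The cells had been clustered without the 10 members and without Ccl3, Ccl4 and Fos, and 349 of the microglia-like cells formed a cluster led by Plaur, Cd83, Capg, Sdc4 and Id2 (cluster 7). No listed microglial marker was among its 10 leading genes, nor among those of any other cluster. It held 63 of the 92 cells (68.5%). In it Lpl was seen in 12.0% of cells (8.81 to 15.9, exact 95% interval), against 0.496% of the other 17541 microglia-like cells. Lgals3 was seen in 12.6% against 0.205%, Csf1 in 10.3% against 0.713%, Fam20c in 8.60% against 0.285% and Cst7 in 7.45% against 0.969%. The shares were 6.02% against 0.108% for Spp1, 6.02% against 0.393% for Axl and 2.29% against 0.182% for Itgax. Apoe was in 48.7% against 23.2%, and Cd9 in 92.6% against 75.6%. These are descriptions of a cluster whose genes vary together, with no test. For Lpl, Cst7, Spp1, Csf1 and Fam20c they also lie above the shares in the 245 macrophage-like and monocyte-like cells. The highest of those shares for these genes was 1.63%. Cd9 was likewise lower in the 245 cells (13.9%). Lgals3 (40.4%), Apoe (75.5%), Axl (8.98%) and Itgax (2.45%) were instead seen more often in the 245 cells than in the cluster.

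Every library had cells of this cluster, between 1.27% and 3.47% of its microglia-like cells. The means were 2.44% ± 1.11 in DNC-NONE, 2.24% ± 0.58 in DNC-INHIB, 1.62% ± 0.140 in ENZ-NONE and 1.59% ± 0.248 in ENZ-INHIB (SD, n = 3 each), with overlapping ranges. Inside it, 27.3% ± 7.72 of cells held 2 or more of the 8 in DNC-NONE, 15.7% ± 8.92 in DNC-INHIB, 16.9% ± 8.02 in ENZ-NONE and 17.99% ± 6.92 in ENZ-INHIB. Another cluster of 945 cells, led by Adamts1, Dusp1 and Egr1 (cluster 4) and drawn to 66.2% from ENZ-NONE replicate 6, had Ccl3 in 22.2%, Ccl4 in 26.0% and Fos in 39.9% of its cells. It had Lpl in 0.741%, Cst7 in 1.16% and Lgals3 in 0.106%, and Csf1 in 1.48% (0.812 to 2.47) and Fam20c in 0.635%. Of its cells, 2 held 2 or more of the 8.

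**Figure D4:**
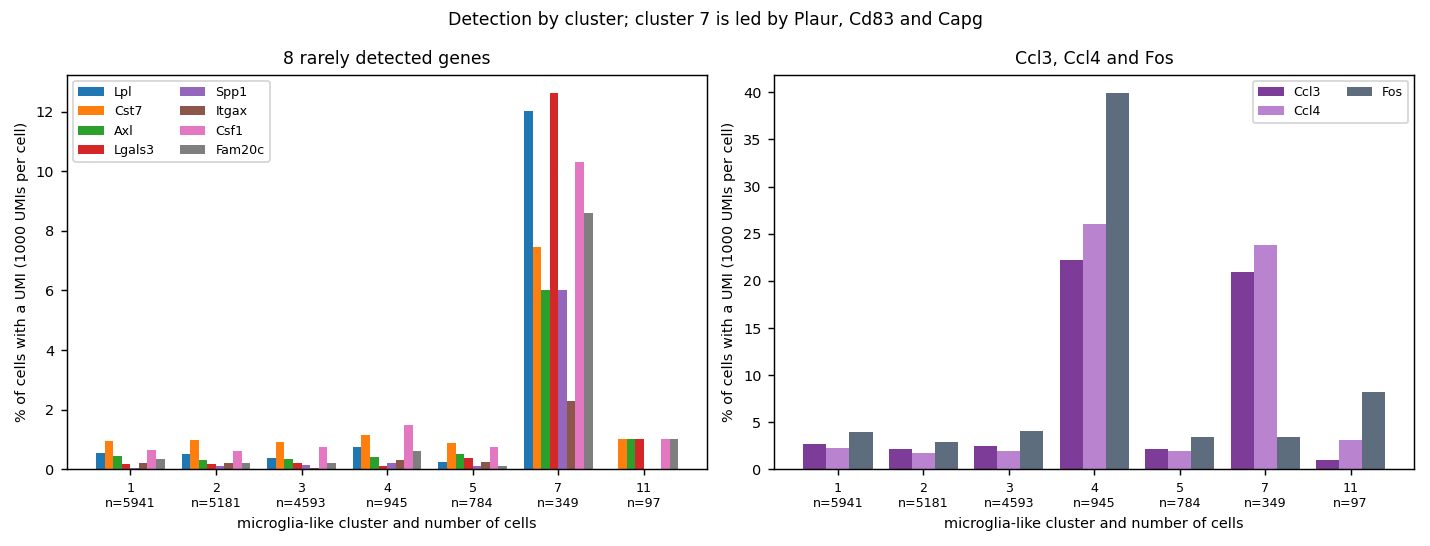
Share of cells with a UMI (percent, linear axis from 0) in each microglia-like cluster after thinning to 1000 UMIs, for the 8 rarely seen genes on the left and for Ccl3, Ccl4 and Fos on the right. Each of the 8 genes is highest in cluster 7 (Lpl 12.0%, and Csf1 10.3% beside 1.48% in cluster 4), while Ccl3 and Ccl4 are high in clusters 4 and 7 and Fos in cluster 4 (39.9%).

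The 92 cells with 2 or more of the 8 also differed in genes that had no part in choosing them. Genes of resting microglia were seen less often: P2ry12, a purine receptor, in 73.9% of the 92 against 99.2% of all microglia-like cells, Tmem119 in 55.4% against 96.2%, Selplg in 72.8% against 99.1% and Siglech in 29.4% against 52.6%. The 14 resting-state genes together gave a mean of 31.3 UMIs per cell against 52.7 in cells with none of the 8. The 23 further disease-associated genes gave 54.8 against 28.6 in the same comparison. Of these, Cd63, a tetraspanin of late endosomes and lysosomes, was in 93.5% against 47.2% of all microglia-like cells. Cd52 was in 41.3% against 17.5%, Lyz2, which encodes lysozyme, in 57.6% against 29.2%, and Ccl6 in 41.3% against 21.8%. Trem2, a receptor of the state's signalling, was in 84.8% against 86.1%.

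Over 2938 genes compared by the ratio of observed to expected cells, whose median was 0.924, the 8 highest ratios among genes that are no members, were seen in at least 1% of cells and had at least 5 cells expected were those of Cd74 (4.92), the invariant chain of MHC class II, the chemokine Cxcl16 (4.05), Cd83 (3.84), the protease inhibitor Cstb (3.76), Hnrnpa1 (3.30), Eprs (2.99), Aplp2 (2.98) and Dgkz (2.88). The 92 cells had a median of 1492 UMIs before thinning, against 1331 in cells with none of the 8, and a median of 1.27% mitochondrial UMIs against 0.9753%. None of the 92 was among the 2% of cells with the highest doublet scores. Border macrophage markers were seen in 14.1% of them against 17.9% of cells with none of the 8 (1 of 9 genes). Monocyte markers were seen in 1.09% against 1.05% (1 of 9), and dendritic and neutrophil markers in 0%. Interferon response genes were seen in 13.04% against 3.84% (5 of 8 genes) and proliferation genes in 3.26% against 0.628% (3 of 7), and the part of either in these values was not tested.

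Cells with a UMI of Ccl3 or Ccl4 held most of the disease-associated genes more often than other cells of the same library. Of 687 Ccl3-positive cells, 20 held Lpl where 3.99 were expected within libraries (ratio 5.01, 3.06 to 7.74). The ratio was 6.68 for Fam20c, 6.59 for Lgals3, 4.54 for Spp1, 3.99 for Axl, 3.98 for Csf1 and 2.81 for Cst7. Of these genes, Lgals3 and Csf1 had the kappa-B consensus in their windows and Fam20c, with the highest ratio, did not. Ccl3 itself did not have it, and Fos did. Whether the motif has a part in these ratios was not tested. The ratio was 1.31 (1.14 to 1.50) for Apoe and 1.04 (0.957 to 1.13) for Cd9, and Itgax was in 1 such cell where 1.53 were expected. With Ccl4 (658 cells) the ratios were 7.55 for Lgals3, 7.48 for Fam20c, 5.95 for Lpl, 4.91 for Spp1, 4.65 for Axl, 4.41 for Csf1, 2.42 for Cst7, 2.04 for Itgax, 1.39 for Apoe and 1.05 for Cd9.

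The median over the 10 genes was 3.98 with Ccl3 and 4.53 with Ccl4. Of the 10, only 4 (Apoe, Cd9, Cst7 and Csf1) had at least 5 cells expected, and their median was 2.06 with Ccl3 and 1.91 with Ccl4. Over 8416 genes the median with Ccl3 was 0.979, and the 10th and 90th percentiles were 0.713 and 1.28. Among the 4321 genes as rarely seen as the 8 (1 to 12 cells expected), 0.509% had a ratio above 3. Counted as cells with 1 or more of the 8, the number was above the expected one in 12 of 12 libraries, by 1.23 to 14.3 times with Ccl3 and by 2.03 to 10.2 times with Ccl4. Most of these ratios rest on few cells: with Ccl3 the lowest was 1 cell against 0.817 expected and the highest 2 against 0.140, and with Ccl4 the highest was 6 against 0.587. In ENZ-NONE, where 508 of the 687 Ccl3-positive cells were, the median of the 10 was 2.45 with Ccl3 and 2.702 with Ccl4. In the other 9 libraries it was 6.47 and 7.44, where only Apoe and Cd9 had 5 or more cells expected and the median of these 2 was 1.19 and 1.18. Csf1 was then in 17 Ccl3-positive cells where 1.65 were expected (10.3, 5.997 to 16.5).

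Fos gave another picture. In 999 Fos-positive cells the ratios ran from 0.564 for Fam20c to 2.25 for Spp1, every interval included 1, and the median was 1.04. Lpl was in 4 Fos-positive cells where 4.89 were expected, Lgals3 in 4 against 4.67, Csf1 in 11 against 12.0 and Cst7 in 12 against 10.5. Cells with 1 or more of the 8 numbered 39 among them against 38.1 (1.02, 0.727 to 1.40). Nearly all of this rests on ENZ-NONE, which held 945 of the 999 cells, so that the other 9 libraries, with 54, could show little.

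**Figure D5:**
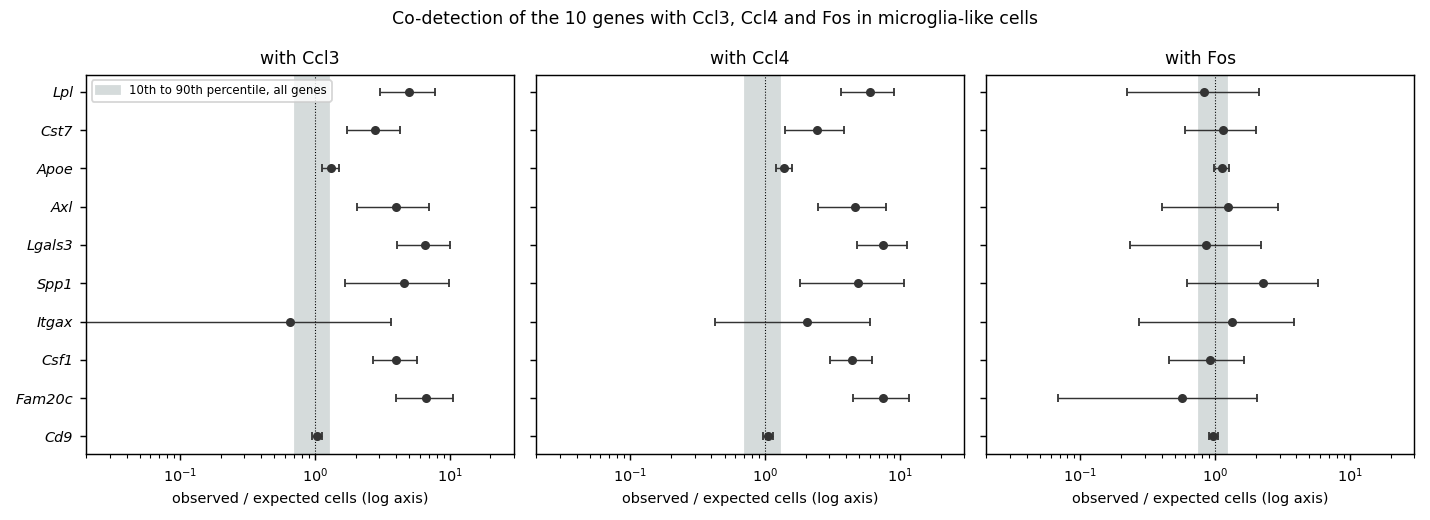
Number of microglia-like cells holding both genes divided by the number expected within libraries (log axis), for each of the 10 genes with Ccl3, Ccl4 and Fos. Bars are exact 95% Poisson intervals, the shaded band is the 10th to 90th percentile of all genes, and the dotted line marks 1; Lgals3 stands at 6.59 with Ccl3, 7.55 with Ccl4 and 0.857 with Fos.

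The ratios with the chemokines fell when the Plaur-led cluster was taken apart. It had Ccl3 in 20.9% and Ccl4 in 23.8% of its cells against 3.5% and 3.28% of other microglia-like cells, and Fos in 3.44% against 5.63%. When the expected numbers were set separately for that cluster and for the remaining cells of each library, the median of the 10 fell to 1.69 with Ccl3 and 1.54 with Ccl4 and was 1.04 with Fos. For cells with 1 or more of the 8, the ratio went from 3.28 (2.63 to 4.05) to 1.73 (1.38 to 2.13) with Ccl3 and from 3.64 (2.93 to 4.46) to 1.74 (1.41 to 2.14) with Ccl4. Inside the cluster it was 1.58 (1.16 to 2.09) and 1.48 (1.09 to 1.95), and outside it 1.95 (1.39 to 2.67) and 2.22 (1.60 to 3.00).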

How the data were processed

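Sorted brain myeloid cells of 12 mice were profiled with a 10X Genomics 3' version 2 kit. The authors deposited raw UMI counts, 1 gene-by-cell matrix per mouse, which Cell Ranger 3.0.0 had made against mm10 (per the submitters' processing notes). They are not normalized, and the study's cell filters had not yet been applied. Since UMIs are counted at the 3' end, they were not divided by gene length, and genes were not ranked by level. Whether antisense reads were set apart is not given in the sources used here.

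Cells were kept if they had 500 genes or more, 1000 UMIs or more and no more than 10% of UMIs from mitochondrial genes (18830), and 4 with marker genes of a second lineage were removed as doublets. That is 0.0212%, so most doublets remain, and leaving out the 376 cells with the highest Scrublet scores was an alternative. Scrublet was run in scanpy 1.11.5. Clusters (Leiden method of igraph) were made without the members and the genes of the study's activation lists and named from marker lists, so names can differ from the study's.

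UMIs were summed per library and tested on all 12 libraries together with edgeR 4.0.16 (TMM, filterByExpr, glmQLFit with robust estimates, glmQLFTest). DESeq2 1.42.0 was an alternative. Shares of cells were compared by exact permutation over libraries. With 3 libraries against 3 that test cannot go below 0.1, so ENZ-NONE was set against the other 9. Co-detection was the number of cells with both genes over the sum of the numbers expected within each library, and has no test. All calculations were tested on simulated data. Each library is 1 mouse, so p values measure the spread between mice. Intervals of shares and of co-detection ratios cover counting error only.

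The members and gene lists were chosen with earlier results of these data known. Named genes were the 10 members, Ccl3, Ccl4 and Fos, members of the 2 further lists where called, and the 8 non-members most co-detected. The values printed for single genes of the 2 further lists, for the clusters' leading genes and for overlapping genes were chosen after the data were seen. The alternatives with the Plaur-led cluster apart, without the robust estimate and with 2 groups alone were also chosen after seeing the data.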

Additional observations from a re-analysis of the deposited data

How the results depend on the processing

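Over the 6 pairs and the alternatives run (DESeq2, other size factors, no filter on low counts, all deposited barcodes, microglia-like cells alone, both treatments of doublets, batch as a covariate, no robust estimate, and each library left out), the number of members called stayed at 0 in 93 of 94 values, and each library left out gave 0 to 0. The exception was the replicate number taken as a block, which called 1 member, Lgals3, between ENZ-INHIB and DNC-NONE, where 90 of 9449 genes were called. What the numbers mark is not stated. Same-numbered libraries had correlations of -0.10, -0.05 and 0.00 in their deviations from the group means there. Between ENZ-NONE and DNC-INHIB, where the replicate block called 0 members, they had 0.10, -0.02 and 0.15, beside -0.14 to 0.05 for libraries with different numbers. So few correlations cannot show whether same-numbered libraries shared a day or litter.

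The differences in the share of positive cells between ENZ-NONE and the other 9 libraries passed no threshold in any of 186 alternatives (smallest exact permutation p 0.0727), and 22 of them changed sign. In percentage points they became -1.75 for Cst7 and 1.21 for Apoe when cells were thinned to 2000 UMIs, which leaves 1019 of 17890 cells, 0.26 for Apoe and 0.0017 for Axl when 2 UMIs were asked for, and 0.030 for Spp1 and 0.042 for cells with 2 or more of the 8 when cells of at least 500 UMIs were thinned to 500. Leaving out 1 library gave -0.15 to 0.12 for Cst7, -2.33 to 0.86 for Apoe, -0.16 to 0.013 for Lgals3, -0.081 to 0.073 for Itgax, -0.026 to 0.30 for Csf1 and -1.79 to 1.66 for Cd9. With no change of sign it gave -0.38 (without ENZ-NONE replicate 5) to -0.10 (without DNC-NONE replicate 3) for Lpl, -0.15 to -0.044 for Axl, -0.12 (without ENZ-NONE replicate 5) to -0.013 (without ENZ-NONE replicate 4) for Spp1, -0.18 to -0.10 for Fam20c, and -0.19 to -0.064 (without DNC-NONE replicate 3) for cells with 2 or more of the 8.

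The median ratio of co-detection moved by more than the spread over libraries in 3 of 54 alternatives: 7.44 with Ccl4 and 0 with Fos in the 9 libraries other than ENZ-NONE, and 1.54 with Ccl4 when the Plaur-led cluster was taken apart. Leaving out 1 library gave 3.47 to 5.02 with Ccl3, 4.11 to 5.83 with Ccl4 and 0.94 to 1.05 with Fos. Depth limits the 8 rare genes most, since the median cell held 1333 UMIs and a cell with no UMI of a gene may still express it.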

Other observations

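Outside the microglia-like cells the 10 genes split by cell class. Monocyte-like cells held Lgals3 in 75.6% of 131 cells (67.3 to 82.7, exact 95% interval) and Apoe in 54.2%. They held Itgax in 4.58% and Csf1 in 0% (upper limit of the exact interval 2.78%). Border macrophage-like cells held Apoe in 100% and Axl in 15.8% of 114 cells and Lgals3 in 0% (upper limit 3.18%). The cluster led by H2-Aa, H2-Eb1 and Cd74 (257 cells) held Axl in 29.96%, Lgals3 in 26.5%, Spp1 in 4.67% and Cd9 in 24.1% of cells. It held Cst7, Csf1 and Fam20c each in 0% (upper limit 1.425%). Its richest cell held 515 Apoe UMIs.

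Of the 404 interferon-like cells, 75.2% held Cd9, against 75.9% of microglia-like cells, and 1 cell held Lpl, too few to compare. They held Axl in 5.45% (3.44 to 8.13) and Csf1 in 4.21% (2.47 to 6.65), against 0.503% and 0.900% of microglia-like cells. These are pooled over 12 libraries after thinning to 1000 UMIs, and no test was made between the classes.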
